A study of Mus musculus with 12 samples.

Results

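Vascular endothelium that meets an inflammatory stimulus puts adhesion molecules on its surface and changes the balance of the proteins that start and restrain clotting. Both kinds of gene were followed here in mouse glomeruli, the capillary tufts that filter blood in the kidney. The 9 genes were chosen by symbol for these roles, with earlier results of these data known. They were Icam1, Vcam1, Sele and Selp for leukocyte adhesion, Vwf for platelet adhesion, F3 for the start of coagulation, and Thbd, Procr and Tfpi for its restraint. All 9 were found among the 26264 symbols of the count tables, and all 9 were among the 17002 genes that passed the filter on low counts, Selp only because of its counts at Day 5.

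Poly(A) RNA of bead-purified glomeruli was sequenced from male mice obtained at 8 weeks of age. BALB/cAjcl mice, written Ajcl here, were compared with BALB/cByJcl mice, written ByJcl. Baseline glomeruli came from 3 Ajcl and 3 ByJcl mice labelled untreated, and Day 5 glomeruli from 3 other mice of each substrain that had received 1 intravenous dose of adriamycin (ADR; doxorubicin) of 10 mg/kg 5 days earlier. No allele or transgene distinguishes the groups apart from the substrain. ADR is a cytotoxic anthracycline used in mice to injure podocytes, the cells that cover the glomerular capillaries. The labels call the baseline mice untreated, while the protocols also mention controls that received saline, so it is not certain whether the baseline mice were injected. If they were not, the injection cannot be told apart from ADR, and neither can any difference between the separate tables that held the baseline and Day 5 counts. Ajcl Day 5 replicate 1 was left out of the fit of 11 libraries and used only in alternatives to it, and its summed proximal tubule markers reached 3646 CPM (read counts relative to the library size, scaled by the TMM method) against 1391 and 1920 CPM in the other 2 Ajcl Day 5 libraries. The study had excluded it for reduced glomerular purity. Group sizes in the fit were therefore 3, 2, 3 and 3, and values of the library left out are given beside the others.

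Total counts lay between 42198416 and 54687045 per library, with a median of 46915194, at which 3 counts equal about 0.0648 CPM. The 12 endothelial markers (Pecam1, Cdh5, Kdr and others) were detected in every library, with summed levels of 9218 to 10384 CPM at Ajcl baseline, 9251 and 9530 CPM in Ajcl at Day 5, 10427 to 12117 CPM at ByJcl baseline and 7267 to 10480 CPM in ByJcl at Day 5. In whole glomeruli a lower level can mean fewer cells of a type or less RNA per cell, and these cannot be told apart. Replicates are separate animals, so the p-values measure the spread between mice.

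As background, selectins (Sele, Selp) slow leukocytes on the vessel wall, and the immunoglobulin-type molecules ICAM-1 and VCAM-1 then hold them through integrins. In cultured endothelium Sele, Icam1, Vcam1 and F3 are classic targets of the transcription factor NF-kappaB, which cytokines such as TNF activate. Resting endothelium is anticoagulant: thrombomodulin (Thbd) turns thrombin into an activator of protein C, the endothelial protein C receptor (Procr) presents protein C to it, and tissue factor pathway inhibitor (Tfpi) blocks the complex of tissue factor (F3) with factor VIIa. Quiescent endothelium shows little tissue factor, which is abundant on cells outside the vessel lumen. Vcam1 is also made by parietal epithelial cells of Bowman's capsule.

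The sequence upstream of the transcription start is shown for the members in which an NF-kappaB core was found, since these include Sele and Icam1, which rose in ByJcl. Of the 9 genes, 6 had a start in the RefSeq promoter table (GRCm38.p6), with 7 windows of 250 bases before it, and each window matched GRCm39 exactly once. Vcam1, Vwf and Thbd were not in this table. Windows were searched on both strands for the NF-kappaB core GGNNNTTCC, the AP-1 element TGANTCA and the TATA box TATAAA, letters chosen after the sequences had been seen. Over all 32851 windows of the same length, 15.7% held the NF-kappaB core, 6.75% the AP-1 element and 12.4% the TATA box. GENCODE gives some of these genes an earlier start, so only bases outside its exons of the gene are shown, and for Icam1, whose 250 bases all lie in such exons, 30 bases around each match. Capitals mark the matches, some of which read on the opposite strand, and the sequences read from 5′ to 3′ on the strand of the gene, as follows.
Icam1, chr9:20927072-20927101, plus strand of GRCm39: tacttcagtttGGAAATTCCtagatcgcag
Icam1, chr9:20927141-20927170, plus strand: agtctccacccGGAAATACCgaagccctcg
Sele, chr1:163875553-163875739, plus strand: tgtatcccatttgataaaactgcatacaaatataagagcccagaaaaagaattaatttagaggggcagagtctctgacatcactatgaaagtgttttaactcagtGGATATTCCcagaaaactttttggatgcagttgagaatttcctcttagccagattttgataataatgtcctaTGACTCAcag
Selp, chr1:163942583-163942832, plus strand: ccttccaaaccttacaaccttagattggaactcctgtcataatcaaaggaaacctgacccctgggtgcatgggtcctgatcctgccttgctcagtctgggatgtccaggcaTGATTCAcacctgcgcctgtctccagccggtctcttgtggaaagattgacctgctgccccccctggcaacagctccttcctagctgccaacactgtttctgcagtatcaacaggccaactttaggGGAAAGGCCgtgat
F3, chr3:121517049-121517176, plus strand: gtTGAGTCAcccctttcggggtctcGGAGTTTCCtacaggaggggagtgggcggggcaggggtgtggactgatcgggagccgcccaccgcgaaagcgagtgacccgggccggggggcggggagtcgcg

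Counted back from the RefSeq start, the NF-kappaB cores began at positions -153 and -84 in Icam1, -145 in Sele, -14 in Selp and -112 in F3. AP-1 elements began at -73 in Sele, -139 in Selp, -154 in Procr, and -146 and -135 in F3, and TATA boxes at -49 in Sele and, on the other strand, at -127 in a window of Tfpi. These matches describe letters and say nothing of whether a factor was bound. Sele and Selp are neighbours on chromosome 1, separated by 56777 bases in GRCm39.

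Sele and Icam1 rose after ADR. Sele (chr1:163867401-163886055 of GRCm39, plus strand, in GENCODE) encodes E-selectin, which activated endothelium makes. It was measured in ByJcl at 1.13, 2.26 and 1.88 CPM at baseline and at 8.17, 10.1 and 15.6 CPM at Day 5. Every ByJcl Day 5 library was above every baseline library. The log2 fold change was 2.68 ± 0.50 (SE), a 6.43-fold rise (adjusted p = 0.00853, edgeR quasi-likelihood test with Benjamini-Hochberg adjustment over all genes tested). In Ajcl, Sele stood at 0.712, 1.30 and 1.42 CPM at baseline and at 2.49 and 10.3 CPM at Day 5, with 1.55 CPM in the library left out. Both fitted Day 5 libraries were above the baseline range, but only replicate 3 was near the ByJcl level. The Ajcl log2 fold change of 2.48 ± 0.54 (SE) did not pass the edgeR test (adjusted p = 0.109), while DESeq2 called it (adjusted p = 0.000394). It was 1.10 without replicate 3 of Ajcl at Day 5 and 3.15, and called, without replicate 2 (edgeR adjusted p = 0.00896).

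Icam1 (chr9:20926672-20940113, plus strand) encodes ICAM-1, which binds the leukocyte integrins LFA-1 and Mac-1. It was measured in ByJcl at 32.7, 39.2 and 54.5 CPM at baseline and at 102, 105 and 108 CPM at Day 5. The Day 5 libraries were close together and all above baseline. The log2 fold change was 1.32 ± 0.29 (SE), a 2.50-fold rise (adjusted p = 0.0166, edgeR). In Ajcl it stood at 28.9, 22.8 and 23.1 CPM at baseline and at 34.1 and 87.6 CPM at Day 5, with 36.7 CPM in the library left out. As for Sele, replicate 3 alone among the Ajcl Day 5 libraries came near the ByJcl level. The Ajcl log2 fold change of 1.29 ± 0.31 (SE) did not pass the edgeR test (adjusted p = 0.155), while DESeq2 called it (adjusted p = 0.00567). Without replicate 3 of Ajcl at Day 5 it was 0.44, and without replicate 2 it was 1.80 and called (edgeR adjusted p = 0.00582). The ByJcl call was lost without ByJcl baseline replicate 1, ByJcl baseline replicate 2 or ByJcl Day 5 replicate 2, with adjusted p-values of 0.0633, 0.0683 and 0.0571 and log2 fold changes of 1.17, 1.27 and 1.32. Averaged over the substrains, Sele changed by 2.58 ± 0.37 (SE) and Icam1 by 1.30 ± 0.21 (SE) on the log2 scale (edgeR adjusted p = 0.00195 and 0.00393), and both were called in each of the 20 alternatives run for that contrast.

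**Figure D1:**
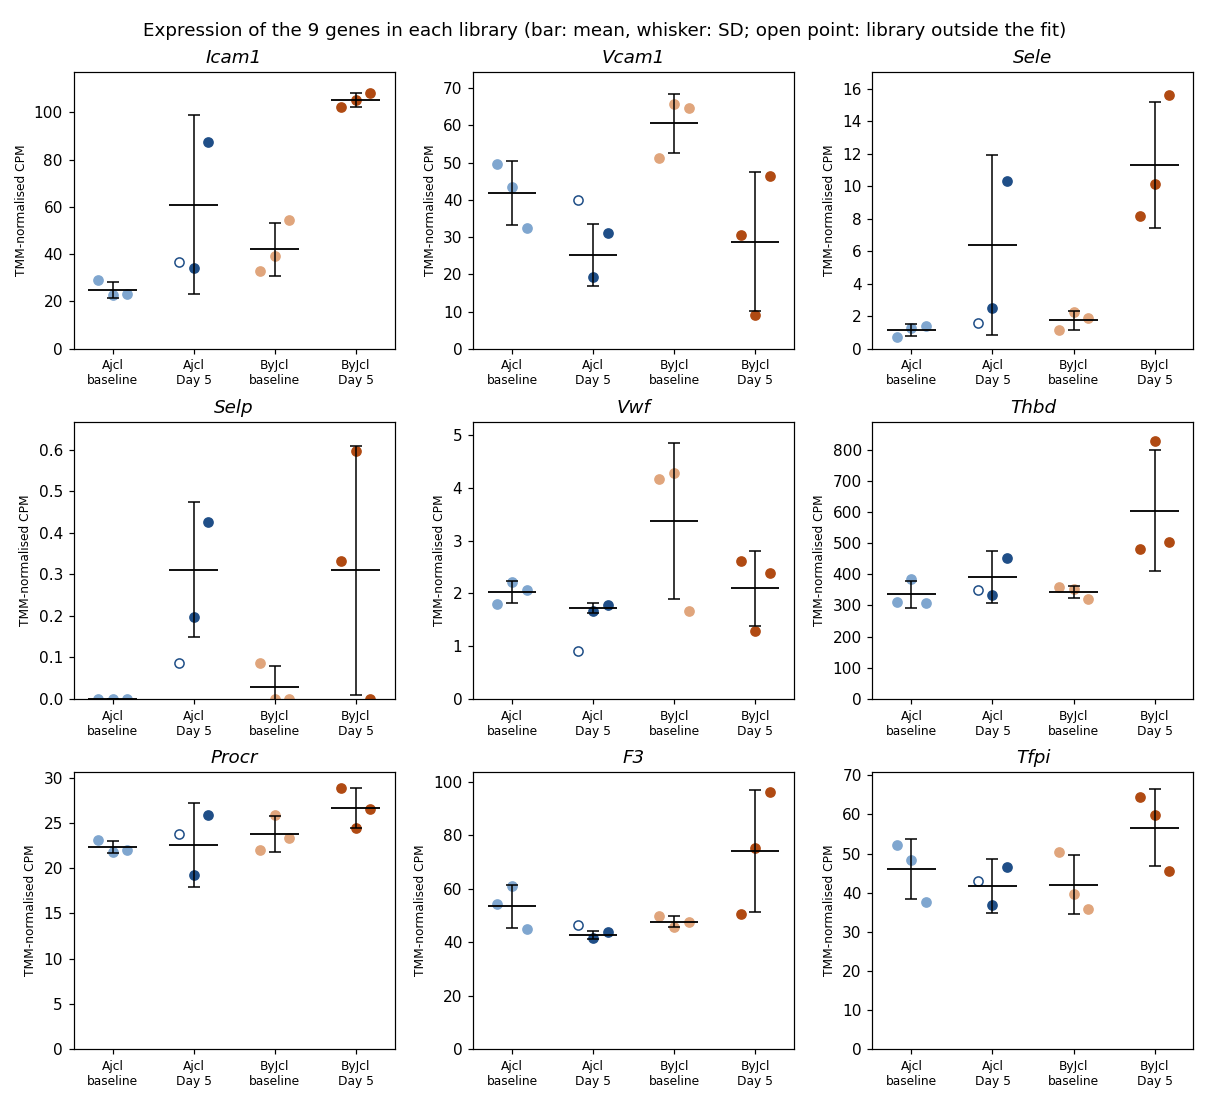
TMM-normalised CPM of each of the 9 genes (vertical axes, each starting at 0) in the 4 groups of libraries (horizontal axes). Points are libraries, bars the group means and whiskers the SD, and the open point is Ajcl Day 5 replicate 1, which is outside the means. The 3 ByJcl Day 5 libraries lie above the ByJcl baseline for Sele, Icam1, Thbd and F3, and the Ajcl Day 5 points are spread for Sele and Icam1.

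Vcam1 (chr3:115903598-115923355, minus strand) had lower levels after ADR, without passing the test in either substrain with the 11 libraries. VCAM-1 holds leukocytes through the integrin VLA-4. Its levels in ByJcl were 51.3, 65.7 and 64.7 CPM at baseline and 30.7, 9.13 and 46.3 CPM at Day 5. All 3 Day 5 libraries were below the baseline range, and replicate 2 was far below the others. The log2 fold change of -1.08 ± 0.43 (SE) did not pass the test (edgeR adjusted p = 0.138). It was -0.65 without ByJcl Day 5 replicate 2 and -1.58, and called, without replicate 3 (edgeR adjusted p = 0.0455). Averaged over the substrains it was -0.90 ± 0.33 (SE, edgeR adjusted p = 0.1097), and called without ByJcl Day 5 replicate 3 (edgeR adjusted p = 0.0352). In Ajcl it was 49.5, 43.5 and 32.6 CPM at baseline and 19.3 and 31.1 CPM at Day 5, with 39.9 CPM in the library left out and a log2 fold change of -0.73 ± 0.49 (SE, edgeR adjusted p = 0.713). The 6 parietal epithelial markers summed to between 98.0 and 113 CPM at ByJcl baseline and between 89.9 and 148 CPM at Day 5, and their part in the Vcam1 level was not tested.

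Selp (chr1:163942833-163977595, plus strand) encodes P-selectin, which endothelium and platelets store in granules, and was at the limit of detection. It had 0 counts in all 3 Ajcl baseline libraries and 4, 0 and 0 counts in the ByJcl ones. At Day 5 it had 9 and 21 counts in Ajcl, 4 in the library left out, and 15, 26 and 0 in ByJcl. The 2 fitted Ajcl Day 5 libraries held 0.197 and 0.426 CPM, and the library left out 0.0864 CPM. A floor of 3 counts per library equals 0.0649 CPM at Ajcl baseline. In ByJcl the groups overlapped. Since Selp passed the filter on low counts only through its Day 5 libraries, no test of Day 5 against baseline is given for it. Platelet markers summed to between 8.70 and 11.5 CPM at Ajcl baseline, 8.92 and 10.6 CPM in Ajcl at Day 5, 8.31 to 9.12 CPM at ByJcl baseline and 10.6 to 10.99 CPM in ByJcl at Day 5. Of this list of 8, Gp6 was at 0 in 6 and Treml1 in 4 of the 11 libraries. The part of platelets in the Selp counts was not tested.

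Vwf (chr6:125523737-125663642, plus strand) encodes the multimeric protein that tethers platelets to the vessel wall, and was scarce. It was 4.16, 4.28 and 1.66 CPM in ByJcl at baseline and 2.61, 1.29 and 2.38 CPM at Day 5. In Ajcl it was 1.79, 2.22 and 2.06 CPM at baseline and 1.66 and 1.78 CPM at Day 5, with 0.907 CPM in the library left out. The ByJcl groups overlapped, with a log2 fold change of -0.68 ± 0.37 (SE, edgeR adjusted p = 0.263), and the Ajcl change was -0.23 ± 0.42 (SE, edgeR adjusted p = 0.907).

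Among the anticoagulant genes Thbd rose in ByJcl. Thbd (chr2:148216045-148250201, minus strand) was 358, 353 and 322 CPM at ByJcl baseline and 482, 828 and 504 CPM at Day 5. Every Day 5 library was above baseline, and replicate 2, the library with the least Vcam1, was the highest. The log2 fold change was 0.81 ± 0.20 (SE), a 1.76-fold rise (edgeR adjusted p = 0.0291). In Ajcl Thbd was 313, 385 and 309 CPM at baseline and 333 and 451 CPM at Day 5, with 350 CPM in the library left out, and the groups overlapped (log2 fold change 0.23 ± 0.22, SE; edgeR adjusted p = 0.816). The ByJcl call was lost without ByJcl Day 5 replicate 2 or without any of the ByJcl baseline libraries, with adjusted p-values of 0.0741 to 0.0916. Its log2 fold change was 0.52 without ByJcl Day 5 replicate 2 and 0.77 to 0.84 without a baseline library. Averaged over the substrains the log2 fold change was 0.52 ± 0.15 (SE), just short of the threshold (edgeR adjusted p = 0.0514), and was called in 9 of 20 alternatives.

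Procr (chr2:155593031-155597397, plus strand), the protein C receptor gene, was not called by either tool. It was 22.0, 25.9 and 23.3 CPM in ByJcl at baseline and 28.9, 24.4 and 26.5 CPM at Day 5, which overlapped. In Ajcl it was 23.1, 21.8 and 22.1 CPM at baseline and 19.3 and 25.9 CPM at Day 5, with 23.8 CPM in the library left out. The 95% confidence intervals of its log2 fold changes were -0.12 to 0.45 in ByJcl and -0.30 to 0.33 in Ajcl, and neither passed the test (edgeR adjusted p = 0.456 and 0.982).

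Tfpi (chr2:84263195-84307164, minus strand) was 50.5, 39.7 and 35.8 CPM in ByJcl at baseline and 64.5, 59.8 and 45.6 CPM at Day 5. Only replicate 3 of the Day 5 libraries fell within the baseline range, and the log2 fold change of 0.43 ± 0.18 (SE) did not pass the test (edgeR adjusted p = 0.153). In Ajcl Tfpi was 52.3, 48.3 and 37.5 CPM at baseline and 36.8 and 46.6 CPM at Day 5, with 43.0 CPM in the library left out, a log2 fold change of -0.14 ± 0.20 (SE, edgeR adjusted p = 0.881).

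F3 (chr3:121516610-121528820, plus strand), the gene of tissue factor, had fold changes of opposite sign in the substrains, and neither passed the edgeR test, with the filter and all 11 libraries, while DESeq2 called the ByJcl change. In ByJcl it was 49.8, 45.6 and 47.5 CPM at baseline and 50.7, 75.2 and 96.2 CPM at Day 5. All Day 5 libraries were above baseline, replicate 1 by little. The log2 fold change was 0.64 ± 0.19 (SE), with an adjusted p of 0.0592 in edgeR and 0.0136 in DESeq2. In Ajcl F3 was 54.4, 60.9 and 44.9 CPM at baseline and 41.6 and 43.6 CPM at Day 5, with 46.5 CPM in the library left out, and the log2 fold change was -0.33 ± 0.22 (SE, edgeR adjusted p = 0.710). Without the ByJcl Day 5 libraries one at a time, the ByJcl change ranged from 0.42 to 0.85 on the log2 scale, lowest without replicate 3 and highest without replicate 1, where it was called (edgeR adjusted p = 0.00466). Without a filter on low counts it was 0.63 and also called (edgeR adjusted p = 0.0479).

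Among the 8 genes that passed the filter at both times, Selp being the exception, 3 were called in ByJcl after ADR (Sele, Icam1 and Thbd), all higher, where edgeR called 10.6% of all genes tested and 5.75% as higher (5.26% as higher among genes that passed at both times). DESeq2 called 4, the same 3 and F3, against 15.8% of all genes. In Ajcl edgeR called 0 of 8 against 0.312% of all genes, with 2 of 8 (Sele and Icam1) at an unadjusted p under 0.05, against 9.8% of all genes. DESeq2 called 2, Sele and Icam1, against 1.77%. Averaged over the substrains edgeR called 2 of 8 (Sele and Icam1) against 10.4% of all genes and 6.29% as higher (5.41% as higher among genes that passed at both times). The median log2 fold change of the 8 genes was 0.53 in ByJcl and -0.06 in Ajcl, against -0.01 and -0.02 over all genes that passed at both times. The contrasts in the 2 substrains use different libraries but share 1 estimate of the spread.

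**Figure D2:**
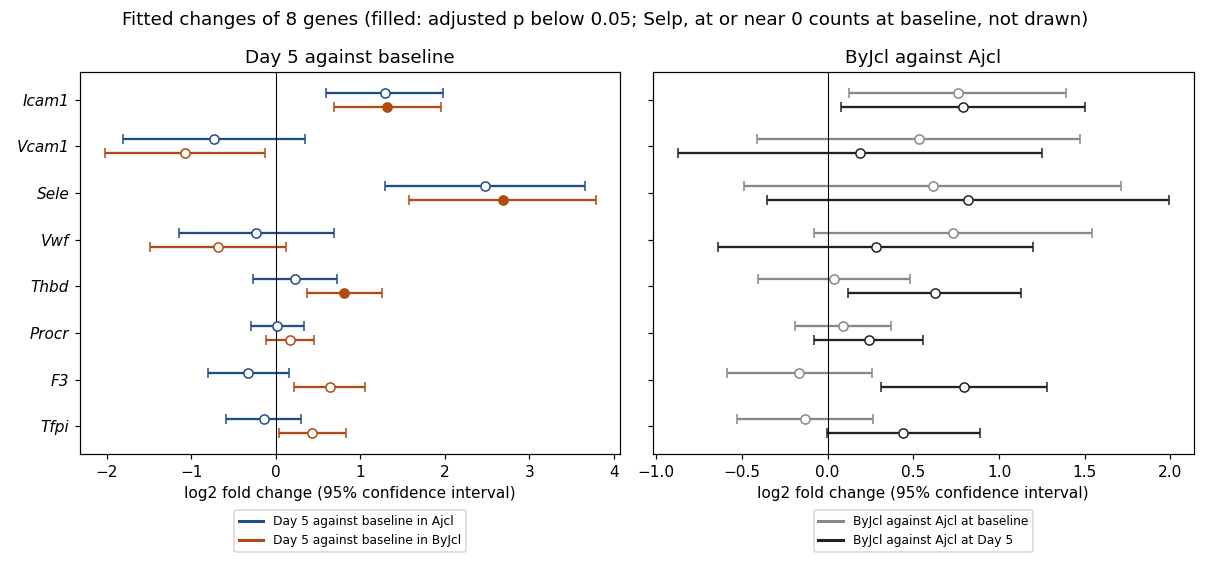
Log2 fold changes with 95% confidence intervals (horizontal axes) of 8 genes, Day 5 against baseline in each substrain (left) and ByJcl against Ajcl at each time (right). Filled points passed an adjusted p of 0.05. Sele (2.68), Icam1 (1.32) and Thbd (0.81) are filled in ByJcl, none in Ajcl or between the substrains. Selp is not drawn because its baseline counts were at or near 0.

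In ByJcl after ADR, edgeR called 1 of the 12 markers higher (Plvap, log2 fold change 0.95 ± 0.27, SE) and 2 lower (Ehd3, -0.81 ± 0.20; Flt1, -0.54 ± 0.15), while DESeq2 called 5, against 5.75% of all genes higher and 4.83% lower in edgeR and 15.8% in DESeq2. Per 1000 CPM of the summed endothelial markers, Sele was 0.108 to 0.187 CPM at ByJcl baseline and 0.779 to 1.61 CPM at Day 5. On the same scale Icam1 was 3.13 to 5.15 CPM and then 9.75 to 14.5 CPM, and Thbd 29.1 to 34.4 CPM and then 46.0 to 114 CPM. The ByJcl groups were apart on this scale for Sele, Icam1 and Thbd, and also for F3, Procr and Vcam1, the last lower at Day 5. They overlapped for Tfpi, Vwf and Selp. The summed markers had a mean of 11041 CPM at ByJcl baseline and 9162 CPM at Day 5, and a lower sum raises every gene on this scale. In ByJcl all 8 podocyte markers fell after ADR from summed levels of 18231 to 21032 CPM to levels of 7132 to 10679 CPM. Of the 10 leukocyte markers edgeR called 1, Cd68, a macrophage gene, as higher, and DESeq2 also called Csf1r as lower, with summed levels of 74.0 to 128 CPM at ByJcl baseline and 81.0 to 141 CPM at Day 5. The part of these shifts in the 9 genes' changes was not tested.

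Compared between substrains, edgeR called none of the 9 genes at either time, and DESeq2 called F3 at Day 5. At baseline edgeR called 0 of 9, against 0.159% of all genes. At an unadjusted p under 0.05 there was 1 of 9 (Icam1), against 8.34% of all genes, and DESeq2 called 0 of 9 and 101 of all genes. Icam1 averaged 24.9 ± 3.42 CPM over the 3 Ajcl libraries and 42.1 ± 11.2 CPM over the 3 ByJcl libraries (SD), which did not overlap, and its log2 difference of 0.76 ± 0.29 (SE) had an adjusted p of 0.577. The 95% confidence intervals of the baseline differences, ByJcl minus Ajcl on the log2 scale, were -0.41 to 0.48 for Thbd, -0.59 to 0.26 for F3, -0.53 to 0.26 for Tfpi and -0.19 to 0.37 for Procr.

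At Day 5 edgeR again called 0 of 9, against 0.165% of all genes, with 3 of 9 (F3, Thbd and Icam1) at an unadjusted p under 0.05, against 14% of all genes. DESeq2 called 1, F3, against 3.49% of all genes. F3 averaged 42.6 ± 1.42 CPM over the 2 fitted Ajcl libraries and 74.0 ± 22.8 CPM over the 3 ByJcl libraries (SD), without overlap, and the log2 difference of 0.80 ± 0.22 (SE) had an adjusted p of 0.168 in edgeR and 0.0199 in DESeq2. It was 1.00, and called by edgeR, without ByJcl Day 5 replicate 1 (adjusted p = 0.0331). Thbd differed by 0.62 ± 0.23 and Icam1 by 0.79 ± 0.32 on the log2 scale (SE; edgeR adjusted p = 0.278 and 0.321). For Icam1 and Sele this comparison hung on which Ajcl libraries were used: with replicate 1 in place of replicate 3, the log2 differences were 1.57 and 2.47 and both were called (edgeR adjusted p = 0.00474 and 0.0150). Without Ajcl Day 5 replicate 2 they were 0.27 and 0.14, against 0.79 and 0.82 with all 11 libraries. Without Ajcl Day 5 replicate 3, Icam1 alone was called (edgeR adjusted p = 0.0265).

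Averaged over the time points edgeR called 0 of 9 between the substrains, against 0.565% of all genes. There was 1 of 9 (Icam1) at an unadjusted p under 0.05, against 15.9% of all genes. Icam1 differed by 0.77 ± 0.22 on the log2 scale (SE), with an adjusted p of 0.147 in edgeR and 0.0131 in DESeq2, which called only Icam1 of the 9 against 4.14% of all genes. Summed leukocyte markers were 41.6 to 66.5 CPM at Ajcl baseline and 32.9 and 74.6 CPM in Ajcl at Day 5, against 74.0 to 141 CPM over the ByJcl libraries of both times. The proximal tubule markers were 936 to 3425 CPM at Ajcl baseline and 378 to 1610 CPM at ByJcl baseline. At Day 5 the distal nephron markers were 817 and 1085 CPM in Ajcl and 95.8 to 509 CPM in ByJcl. Of these 6 markers edgeR called 1 as lower in ByJcl averaged over the time points, against 0.565% of all genes called. The podocyte markers at Day 5 were 10278 and 14676 CPM in Ajcl and 7132 to 10679 CPM in ByJcl. The part of these markers in the substrain differences was not tested.

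Whether ADR changed the genes differently in the 2 substrains was tested by the interaction, for which edgeR called 0 of 9 and 0% of all genes (0 of 17002), with 1 of 9 and 1363 of all genes at an unadjusted p under 0.05. DESeq2 called 0 of the 9 and 22 of all genes. The member below 0.05 was F3, with an interaction of 0.96 ± 0.29 on the log2 scale (SE, edgeR adjusted p = 0.620). For Sele and Icam1 the interactions were 0.21 ± 0.73 and 0.03 ± 0.43 (SE), with 95% confidence intervals of -1.39 to 1.80 and -0.91 to 0.97. For Thbd it was 0.59 ± 0.30 (SE, edgeR adjusted p = 0.643).

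Scaled by the length of the exons in GENCODE, Thbd had the highest level of the 9 genes in every group, and Vwf and Selp the lowest levels. At ByJcl baseline the levels were 47.1 ± 2.64 CPM per kb for Thbd, 15.4 ± 0.677 for F3, 11.6 ± 0.960 for Procr, 8.48 ± 2.25 for Icam1, 6.83 ± 1.23 for Tfpi, 6.74 ± 0.890 for Vcam1, 0.458 ± 0.151 for Sele, 0.201 ± 0.0885 for Vwf and 0.00655 ± 0.0114 for Selp (SD, n = 3). Procr overlapped with Icam1, and Icam1, Tfpi and Vcam1 overlapped with each other, so these neighbours could not be ordered. Icam1 had rank 5 at Ajcl baseline, with 5.02 ± 0.689 CPM per kb, and rank 3 in ByJcl at Day 5, with 21.2 ± 0.611, beside 23.9 ± 7.35 for F3, with which it overlapped. Sele at ByJcl Day 5 reached 2.95 ± 1.01 CPM per kb, near the 3.19 ± 2.08 of Vcam1, and was still far below Thbd at 82.7 ± 26.5 (SD, n = 3 each).

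**Figure D3:**
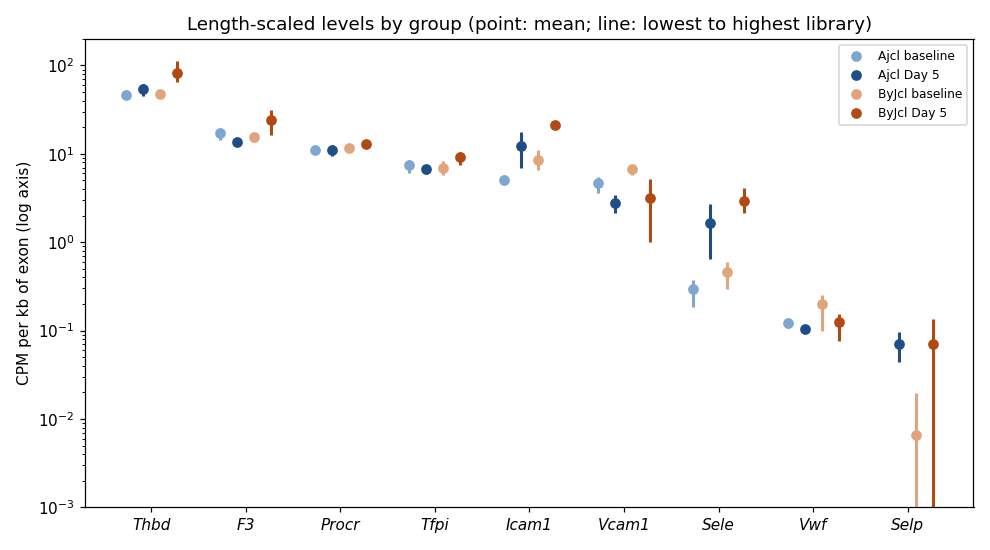
Levels in CPM per kb of exon (vertical log axis) of the 9 genes (horizontal axis) in the 4 groups, with points for means and lines from the lowest to the highest library. Thbd is highest throughout and Selp lowest, and Icam1 and Sele show the widest gaps between the baseline and Day 5 points of a substrain among the genes detected in every library. Selp at Ajcl baseline had 0 counts and has no point, and lines that reach the lower edge end at 0.

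The genes of the NF-kappaB and cytokine response mostly had the same direction as Sele and Icam1. Of 18 such genes, Il6 passed the filter on low counts only through its Day 5 libraries and is not counted. Of the other 17, 12 rose in ByJcl after ADR and 0 fell, against 5.26% of the genes that passed at both times called higher, with a median log2 fold change of 0.74 against -0.01 over these genes. Nfkbia, the inhibitor that NF-kappaB induces against itself, went from 198 ± 23.3 to 395 ± 51.1 CPM (SD, n = 3 each; log2 fold change 1.00 ± 0.17, SE; edgeR adjusted p = 0.00506). The NF-kappaB subunit genes Nfkb2 and Relb changed by 1.18 ± 0.20 and 1.18 ± 0.22, and the interferon regulatory factor gene Irf1 by 1.15 ± 0.22 on the log2 scale (SE; edgeR adjusted p = 0.00536, 0.00821 and 0.00979). The 5 that neither tool called were Traf1, Csf3, Nfkb1, Tnfrsf1b and Cx3cl1. In Ajcl edgeR called 0 of 17, with 7 at an unadjusted p under 0.05 (9.8% of all genes), and the median log2 fold change was 0.27. DESeq2 called 4 of the 17 there, against 1.77% of all genes. The 2 fitted Ajcl Day 5 libraries stood apart for some of these genes. Tnfaip3 was 26.5 and 76.1, Irf1 57.4 and 124, and Nfkb2 56.5 and 112 CPM in replicates 2 and 3, with 30.1, 60.7 and 74.1 CPM in the library left out. For these 3 genes, as for Sele and Icam1, replicate 3 was the highest. Nfkbia was instead highest in the library left out, at 356 CPM against 316 CPM in replicate 3. Nfkb1 was close in replicates 2 and 3, at 115 and 131 CPM. Averaged over the substrains 9 of 17 rose, where edgeR called 6.29% of all genes as higher and 5.41% of those that passed at both times. Among the 9 were Birc3 (0.76 ± 0.11) and Tnfaip3 (1.65 ± 0.26), both feedback regulators of TNF signalling (log2 fold change, SE; edgeR adjusted p = 0.00215 and 0.00346). The interaction was called by edgeR for 0 of 18, with 1 at an unadjusted p under 0.05 and 0 called by DESeq2.

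**Figure D4:**
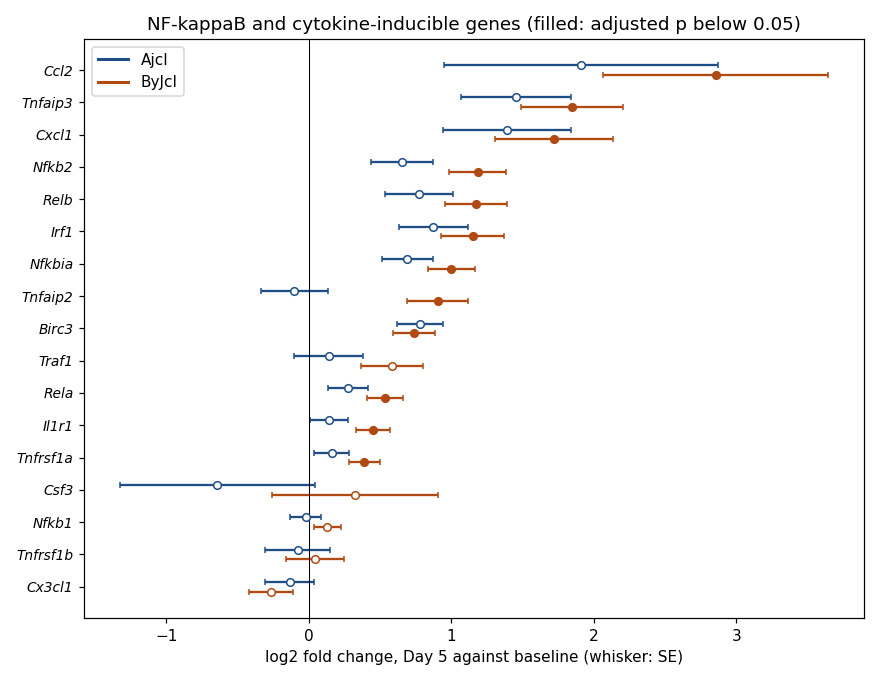
Log2 fold changes with SE (horizontal axis) of 17 NF-kappaB and cytokine-response genes (vertical axis), Day 5 against baseline, in Ajcl and ByJcl. Filled points passed an adjusted p of 0.05: 12 in ByJcl and 0 in Ajcl. Il6 is not drawn because it passed the filter on low counts through Day 5 alone, and Ccl2 had group means of at most 1.65 CPM, so its position depends on few counts.

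Other adhesion genes moved in both directions. Of 17 partners and related molecules 15 could be tested, and in ByJcl after ADR 3 rose and 1 fell (Cd99l2, a leukocyte transmigration protein, log2 fold change -0.44 ± 0.10, SE; edgeR adjusted p = 0.0215). edgeR called 5.75% of all genes as higher and 4.83% as lower there, and DESeq2 called 5 of the 15, against 15.8% of all genes. The median was 0.17 against 0.01 over all genes. The 3 that rose were Jam2, a junctional adhesion molecule, Esam, an endothelial junction protein, and Cd34, a sialomucin. Their log2 fold changes were 1.03 ± 0.23, 0.68 ± 0.15 and 0.72 ± 0.17 (SE, edgeR adjusted p = 0.0191, 0.0150 and 0.0201). Genes of integrin subunits that pair with ICAM-1 and VCAM-1 were not called by edgeR. Their log2 fold changes were 0.56 ± 0.46 for Itgam, -0.14 ± 0.43 for Itgal, -0.09 ± 0.47 for Itgb2 and -0.65 ± 0.23 for Itga4 (SE, edgeR adjusted p = 0.475, 0.869, 0.926 and 0.0983). DESeq2 called Itga4 of these 4 (adjusted p = 0.0464). Itga4 averaged 133 CPM at ByJcl baseline, against 4.57 for Itgam, 8.97 for Itgal and 9.83 for Itgb2, and which cells carried it was not tested.

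In the clotting lists the named changes were few. Of 13 genes for clotting factors and fibrinogen 9 could be tested, and in ByJcl after ADR edgeR called 0 of the 7 that passed the filter at both times, with 3 at an unadjusted p under 0.05 (26.8% of all genes), and DESeq2 called 2 of these 7, against 15.8% of all genes. Of 8 anticoagulants that passed at both times, besides Thbd, Procr and Tfpi, edgeR called 2 in ByJcl after ADR, where it called 10.6% of all genes. Anxa5, which shields phosphatidylserine, rose by 0.41 ± 0.10 on the log2 scale (SE, edgeR adjusted p = 0.0262). Serpind1, heparin cofactor II, was called as well (edgeR adjusted p = 0.0270) from 0 to 2 counts at ByJcl baseline and 8 to 15 at Day 5, which is within the 5 to 16 counts of Ajcl at baseline. F2r, which encodes the thrombin receptor PAR1, rose from 457 ± 40.1 to 1086 ± 311 CPM in ByJcl (SD, n = 3 each), a log2 fold change of 1.25 ± 0.20 (SE, edgeR adjusted p = 0.00431). It was the only 1 of 4 genes of the protease-activated receptor family that edgeR called there, where it called 5.75% of all genes as higher. DESeq2 called 2 of the 4, against 15.8% of all genes. In Ajcl F2r stood at 332 ± 33.2 CPM at baseline (SD, n = 3) and 612 ± 150 CPM at Day 5 (SD, n = 2). The Ajcl log2 fold change of 0.88 ± 0.22 (SE) did not pass the edgeR test (adjusted p = 0.164), while DESeq2 called it (adjusted p = 0.0106). Averaged over the substrains it was 1.07 ± 0.15 (SE, edgeR adjusted p = 0.0018).

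Of 11 tested genes for the processing of von Willebrand factor, its platelet receptors and the Weibel-Palade granules that store it, Itgb3, the integrin beta-3 subunit, rose in ByJcl after ADR (log2 fold change 1.72 ± 0.45, SE; edgeR adjusted p = 0.0342). It was the only 1 of the 11 called by edgeR, near the 5.75% of all genes called higher, and DESeq2 called 3 against 15.8%. Its Day 5 levels ran from 12.1 to 59.0 CPM, above the 7.81 to 11.3 CPM at baseline. Angpt2, a Weibel-Palade protein that destabilises vessels, was higher in ByJcl than in Ajcl averaged over the time points, by 0.49 ± 0.09 on the log2 scale (SE, edgeR adjusted p = 0.0305). Its means were 68.5 and 81.0 CPM at baseline and 54.6 and 91.7 CPM at Day 5 in Ajcl and ByJcl. Klf4, a flow-induced transcription factor that favours thrombomodulin and opposes adhesion molecules, rose in ByJcl from 267 ± 41.6 to 431 ± 21.9 CPM (SD, n = 3 each; log2 fold change 0.69 ± 0.17, SE; edgeR adjusted p = 0.0284). The other 3 flow-responsive regulators were not called by edgeR, with 0.18 ± 0.19 for Klf2, 0.60 ± 0.20 for Nos3 and -0.35 ± 0.12 for Mef2c (log2 fold change, SE; edgeR adjusted p = 0.600, 0.0752 and 0.0906). The edgeR call of Klf4 was thus 1 of 4, where 5.75% of all genes were called higher. DESeq2 called 2 of the 4, Klf4 and Nos3, the endothelial nitric oxide synthase gene (adjusted p = 0.00166 and 0.0253), against 15.8% of all genes.

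The genes most like the called members across the 11 libraries were picked by Pearson's r of log2 CPM, a measure of likeness that carries no p because the highest of all genes were taken and because group differences enter it. For Sele they were Sema3f (0.983), Armcx4 (0.982) and Socs3 (0.978), the last a feedback inhibitor of cytokine signalling. For Icam1 they were Lpcat2 (0.977), a lipid-modifying enzyme, and Serpina3g (0.975) and Serpina3f (0.969), a pair of serine protease inhibitor genes in 1 cluster of close paralogs whose reads may be split between them. For Thbd they were Il20rb (0.969), Gdf5 (0.963) and Carhsp1 (0.960).

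For 7 of the 9 genes GENCODE places another gene on the opposite strand within their span, and the strand setting of the counting is not given in the sources used here. Only 2 of these neighbours were in the count tables: Gm16548, within Selp, with at most 4 counts in a library, and Sstr4, within the span of Thbd, with at most 53. The libraries were strand-specific, and what reads of the other neighbours added to the members' counts was not tested.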

How the data were processed

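Glomerular RNA-seq libraries (12, of 4 groups) were analysed from the counts per gene that the authors deposited: whole-number counts, neither normalised nor pooled, from paired reads trimmed with Trimmomatic, aligned to GRCm39 with STAR and counted with featureCounts, with FastQC as quality check, per the methods and the submitters' processing notes. The annotation is not given in the sources used here. Between 77.1% and 82.9% of low counts per library were even, so both reads of a pair may have been counted. All sample columns were used. Groups were taken from the labels. Counts were filtered with filterByExpr (minimum count 10, minimum total 15), scaled by TMM and fitted with edgeR 4.0.16 in R 4.3.3 (1 coefficient per group, 11 libraries, 7 residual degrees of freedom). Adjusted p-values (Benjamini-Hochberg over 17002 genes) below 0.05 were called in 7 contrasts. DESeq2 1.42.0 was an alternative, and the study's own tool. The edgeR fit was tested on simulated data, and the DESeq2 fit was not. Floors of 3 counts cover counting error only. CPM per kb used the union of GENCODE exons.

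The members and lists were chosen with earlier results of these data known. Named are all members, up to 4 called genes per list and contrast with the smallest adjusted p, and the 3 genes most correlated with each of 3 members. Others (Il6, Ccl2, Itgam, Itgal, Itgb2, Itga4, Klf2, Nos3, Mef2c, Csf1r, uncalled NF-kappaB genes, called markers) were named after their values were seen. The motif letters were also chosen late, as was counting Day 5 calls over the genes that reach the filter on the baseline and on the Day 5 libraries alone (at least 2 libraries of each). Same-numbered replicates are different mice, and the correlations of their deviations from the group means ran from -0.238 to 0.374, so they were not treated as pairs.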

Additional observations from a re-analysis of the deposited data

How the results depend on the processing

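Sele after ADR in ByJcl was called in all 21 alternatives. Leaving out 1 library at a time, the number of the 9 genes called was 0 throughout at baseline between substrains and for the interaction, 0 to 1 for the Day 5 and the averaged substrain differences, 0 to 2 for ADR in Ajcl (2 without Ajcl Day 5 replicate 2), 1 to 4 for ADR in ByJcl (1 without ByJcl baseline replicate 1, 4 without ByJcl Day 5 replicate 1) and 2 to 5 for ADR averaged. This last range counts Selp, whose test of Day 5 against baseline is void, and over the other 8 genes it was 2 to 4 (2 with all 11 libraries, 4 without ByJcl Day 5 replicate 3). Where this left 1 library in a group, it was assumed to vary like the others. DESeq2 called 1 of 9 between substrains at Day 5, 1 averaged over time and 2 for ADR in Ajcl. Without a filter on low counts 1 was called for ADR in Ajcl (Sele, adjusted p = 0.0494). With Ajcl Day 5 replicate 1 in place of replicate 3, an alternative chosen after seeing the data, 2 of 9 (Icam1 and Sele) were called between substrains at Day 5 and averaged over time.

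The sign of some log2 values turned, and the cause was not tested. Those of Selp rest on 0 counts at Ajcl baseline or few counts elsewhere, depend on the prior count and are no measure of size. The Day 5 substrain difference of Vcam1 (0.19) became -0.0658 with all 12 libraries and -0.31 or -0.0453 with replicate 1 in place of replicate 2 or 3, and that of Selp (-0.02) became 0.38, 0.25 and 1.11 in these settings and 0.0082 in DESeq2. Procr after ADR in Ajcl (0.02) became -0.0671 with replicate 1 in place of replicate 3. Leaving out 1 library, the baseline substrain difference of Thbd ran from -0.0376 to 0.149 and of Selp from 0 to 4.08, and the Day 5 difference of Vcam1 from -0.33 to 0.611 and of Selp from -0.906 to 0.651. The ADR change in Ajcl ran from -0.0212 to 0.412 for Thbd, -0.227 to 0.195 for Procr and -0.337 to 0.001 for Tfpi. The interaction ran from -0.470 to 0.889 for Icam1, -0.837 to 0.0782 for Vcam1, -0.461 to 1.59 for Sele and -0.0236 to 0.398 for Procr. The averaged ADR change of Procr ran from -0.0279 to 0.183 and the averaged substrain difference of Selp from -0.0083 to 2.07.

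With the replicate block, 0 of 9 were called between substrains, for the interaction and for ADR in Ajcl, 3 for ADR in ByJcl and 2 of the 8 without Selp for ADR averaged. The genes called for ADR in Ajcl went from 53 to 26.

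Over all genes, DESeq2 called 101 at baseline between substrains (edgeR 27), 535 at Day 5 (28), 301 for ADR in Ajcl (53), 22 for the interaction (0) and 677 for the averaged substrain difference (96). Fits of only the groups compared gave 15, 6 and 33 for the first 3 of these. All 12 libraries gave 72 at Day 5 and 1197 for ADR in ByJcl (1800), and no filter gave 56 at Day 5 and 99 for ADR in Ajcl. With replicate 1 in place of replicate 3, 15 were called at baseline, 793 at Day 5, 22 for ADR in Ajcl, 2 for the interaction, 1040 for ADR averaged (1774) and 839 for the averaged substrain difference; in place of replicate 2, 15 at Day 5, 148 for ADR in Ajcl and 59 for the averaged substrain difference. Leaving out 1 library, the counts ran from 12 to 29 at baseline, 9 to 218 at Day 5, 11 to 180 for ADR in Ajcl, 680 to 2056 for ADR in ByJcl, 0 to 5 for the interaction, 531 to 1816 for ADR averaged and 34 to 280 for the averaged substrain difference. Depth limits what Selp and the scarcest genes of the lists can show.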
